A study of Homo sapiens with 12 samples.

Results

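Making a ribosome takes a set of factors that work mainly in the nucleolus, and 44 genes for such factors are described here in hTERT-RPE1, a human cell line from retinal pigment epithelium that keeps dividing because it carries telomerase. The 44 genes were chosen by name: 8 encode proteins of small nucleolar ribonucleoproteins (snoRNPs), 8 belong to RNA polymerase I (Pol I) and its cofactors, 9 act in small subunit assembly, 16 in large subunit assembly, and 3 (NPM1, NCL and DDX21) are abundant nucleolar proteins with several roles. The choice was made with earlier results of these data known, so the comparisons with all rows below are not an independent test. The genes are 44 of 53361 rows of the deposited gene table, and all 44 passed the filter on low values that left 30712 rows for testing. Each of 4 groups had 3 RNA-seq libraries. Reversine cells received 0.5 µM reversine for 24 h, were washed and were harvested after a further 48 h. Reversine inhibits the mitotic checkpoint kinase MPS1, so that chromosomes missegregate. BafA1 cells received 0.1 µM bafilomycin A1, an inhibitor of the proton pump that acidifies lysosomes, for 6 h. MG132 cells received 1 µM of this proteasome inhibitor for 24 h. Control cells were untreated, and the labels name neither a vehicle nor a time for them, so an effect of solvent or culture time cannot be told apart from that of an agent. Every group was the same immortalised line.

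Pol I transcribes the long precursor of the 18S, 5.8S and 28S rRNAs from the repeated ribosomal DNA. UBTF binds these repeats, the selectivity factor SL1, of which TAF1D is a subunit, marks the promoter, and RRN3 links the polymerase to it. SnoRNPs then guide chemical changes to the precursor: those of the box C/D kind (FBL, NOP56, NOP58) add methyl groups to ribose, and those of the box H/ACA kind (DKC1, GAR1, NHP2, NOP10) turn uridine into pseudouridine. Assembly factors fold and cut the rRNA and add ribosomal proteins, in separate pathways for the small and the large subunit. Genes of this pathway are known targets of the transcription factor MYC. RNA was selected with oligo(dT), so the values below are mRNA levels of the factors, and rRNA itself was not analysed here.

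Values are deposited FPKM, which scale reads to transcript length and to the size of the library, and all differences are of log2(FPKM + 1), treated minus control unless said otherwise, tested with limma across all 30712 rows. A gene was called at a Benjamini-Hochberg adjusted p under 0.05. In bulk RNA a loss of cells of one kind cannot be told apart from less RNA per cell. The files hold no read counts, and intervals for counting error cannot be had. Of 13 fixed markers of retinal pigment epithelium, 4 were at 5 FPKM or more in all 12 libraries, among them KRT8 (262 to 933 FPKM) and OTX2 (10.1 to 17.3 FPKM), and 4 were below 1 FPKM throughout. RPE65, which defines the mature tissue, lay at 0.04 to 0.06 FPKM in the line. No marker of blood, endothelium, neurons or other epithelia (0 of 7, 5, 6 and 6) reached 5 FPKM in all libraries, and none was listed at 0. Among the neuronal markers RBFOX3 ranged from 4.29 to 15.8 FPKM (median 9.44) and GAD1 from 4.49 to 7.18 (median 5.73). PTPRC, a blood marker, reached 13.2 FPKM and CDH1, an epithelial one, 9.66. After MG132 the summed markers of retinal pigment epithelium came to 480.7 to 736.0 FPKM per library, against 1243.3 to 1405.3 in controls, and 2 of the 9 tested were called lower, the keratins KRT8 (−1.29, limma adjusted p = 0.00427) and KRT18 (−1.14, 0.000172). Neuronal markers summed to 18.2 to 26.6 FPKM after MG132 and 16.2 to 21.0 in controls, with SNAP25 called lower (−0.81, limma adjusted p = 0.0178) of 4 tested. Blood and epithelial markers summed to 10.1 to 21.6 and 8.4 to 17.0 FPKM after MG132, against 8.4 to 9.9 and 6.5 to 8.2 in controls. In each list 3 of 4 tested were higher at an unadjusted p under 0.05, with 0 called. Of all 30712 tested rows, 8403 were higher at that unadjusted p after MG132, and 7.67% were called lower. After reversine and BafA1 0 markers of any list were called, with sums for retinal pigment epithelium of 1304.8 to 1579.6 and 1154.7 to 1279.9 FPKM. The part of these markers in the results was not tested. Libraries of the same group differed in one technical respect: over 14010 rows, taken relative to each row's mean of the 12 libraries, values fell as the transcript's GC content rose in reversine 1, BafA1 3 and MG132 2 and 3, with slopes of −0.329, −0.087, −0.446 and −0.466 log2 units per 10 percentage points, and rose with it in the other 8 (0.089 to 0.21). These 4 are called the GC-trend libraries below. Rows listed at 0 numbered 9118 to 10150 in control 3, MG132 2 and MG132 3 and 889 to 4240 elsewhere. Calls of single genes against control that were lost on leaving out the 4 GC-trend libraries are named with the gene.

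Promoter sequence was looked at first, because the factors are often described as sharing promoter motifs. RefSeq promoter windows (GRCh38.p14, 250 bases before to 50 after the start) were found for 37 of the 44 genes. A gene was counted if any of its windows held the motif. The MYC-type E-box CACGTG was found for 14 of the 37 genes (37.8%), against 8.8% of all 27305 gene symbols with a window and 12% of the 10936 tested. CCGGAAG, the core letters of an ETS-type site, was found for 18 genes (48.6%), against 12.2% of all symbols and 19.9% of those tested. CCAAT was found for 15 genes (40.5%, against 43.1% of tested symbols) and the GC box GGGCGG for 28 (75.7%, against 73.2%). Both strands were searched, and matches of different motifs can share letters where they adjoin. Such matches are letters in a window and not shown binding sites. Below are 5 windows, cut at 30 bases after the start, of snoRNP and assembly genes whose mRNA was lower in treated cells (NOP56, DKC1, FBL, MRTO4) and of TAF1D, the one member called higher. They run 5′ to 3′ on the strand of the gene, with matches to the 4 motifs on either strand in capitals.
NOP56 (chr20:2652382-2652661, plus strand): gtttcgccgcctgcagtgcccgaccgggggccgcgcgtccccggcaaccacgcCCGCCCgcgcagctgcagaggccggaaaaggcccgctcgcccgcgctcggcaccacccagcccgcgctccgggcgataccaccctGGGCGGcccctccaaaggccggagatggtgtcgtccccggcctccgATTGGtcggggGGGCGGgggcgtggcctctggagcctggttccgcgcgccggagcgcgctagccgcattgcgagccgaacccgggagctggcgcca
DKC1 (chrX:154762614-154762893, plus strand): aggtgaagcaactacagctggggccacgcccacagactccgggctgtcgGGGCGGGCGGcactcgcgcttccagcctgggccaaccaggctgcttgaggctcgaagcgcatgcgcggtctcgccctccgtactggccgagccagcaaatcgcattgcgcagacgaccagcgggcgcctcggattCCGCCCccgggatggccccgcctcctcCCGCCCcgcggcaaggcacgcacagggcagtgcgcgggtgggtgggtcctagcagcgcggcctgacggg
FBL (chr19:39846350-39846629, minus strand): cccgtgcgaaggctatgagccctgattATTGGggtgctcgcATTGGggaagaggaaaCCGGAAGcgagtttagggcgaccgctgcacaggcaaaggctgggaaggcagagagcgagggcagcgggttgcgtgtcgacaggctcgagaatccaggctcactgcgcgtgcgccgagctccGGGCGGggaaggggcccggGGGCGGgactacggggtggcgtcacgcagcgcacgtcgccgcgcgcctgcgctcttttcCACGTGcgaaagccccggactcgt
MRTO4 (chr1:19251555-19251834, plus strand): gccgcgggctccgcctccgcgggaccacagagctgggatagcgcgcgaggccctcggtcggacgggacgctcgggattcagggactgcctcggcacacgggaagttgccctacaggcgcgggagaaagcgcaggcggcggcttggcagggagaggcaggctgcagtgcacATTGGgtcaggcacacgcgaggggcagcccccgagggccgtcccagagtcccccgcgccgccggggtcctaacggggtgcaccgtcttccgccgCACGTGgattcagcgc
TAF1D (chr11:93741466-93741745, minus strand): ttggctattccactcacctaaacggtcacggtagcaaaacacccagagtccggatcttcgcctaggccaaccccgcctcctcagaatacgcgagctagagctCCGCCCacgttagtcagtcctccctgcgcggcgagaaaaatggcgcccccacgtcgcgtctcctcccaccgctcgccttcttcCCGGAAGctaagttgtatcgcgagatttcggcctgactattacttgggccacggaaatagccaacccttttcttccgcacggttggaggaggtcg
FBL holds all 4 motifs, with its E-box at base 7 and the ETS letters at base −193 from the start. MRTO4 has an E-box at base 15 and a reversed CCAAT at base −80. NOP56 and DKC1 hold no E-box in the window but several GC boxes, and TAF1D holds the ETS letters at −65 and a GC box at −148. Among the 14 genes with the E-box, 2 were called lower after reversine, 0 after BafA1 and 3 after MG132. Among the 23 without it, 3 were called lower after reversine, 2 after BafA1 and 8 after MG132, with 1 higher. The shares of all tested rows called lower were 1.29%, 0.0619% and 7.67%, and 7.14% were called higher after MG132. The median differences of genes with and without the E-box were −0.32 and −0.38 after reversine, −0.49 and −0.32 after BafA1, and −0.08 and −0.48 after MG132.

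In untreated cells the genes spanned a wide range. The median of their control means was 44.4 FPKM. NPM1 was highest with 1190 ± 187 FPKM (SD, n = 3) and UTP20, a scaffold protein of the early small subunit, lowest with 4.01 ± 0.345 FPKM. FBL (245 ± 16.7) and NOP56 (240.0 ± 7.92) stood well below NPM1 and did not differ from each other beyond their spread. NHP2 (155 ± 6.58) came below both, with no overlap between its libraries and theirs.

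The median difference from control was below 0 in all 3 treated groups, while the number of genes that passed the test singly ran from 3 after BafA1 to 15 after MG132. After reversine 5 of 44 genes were called lower and 0 higher, where 1.29% of all tested rows were called lower and 0.801% higher. The 5 were NOP56, DKC1 and FBL of the snoRNPs and MRTO4 and GRWD1 of the large subunit pathway. The median difference of the 44 was −0.39, against 0.09 over all rows, and 35 lay below 0. At an unadjusted p under 0.05, 19 were lower and 0 higher, against 6.7% and 5.12% of all rows. All 3 reversine libraries lay below all 3 controls for 23 of the 44 genes, against 10.1% of all rows, and above them for 1, against 9.97%. Leaving out the 4 GC-trend libraries, 3 genes were called, where 2.59% of all rows were called, against 2.09% with all libraries. Without control 1, 2 or 3 the counts were 1, 2 and 0, where 0.804%, 1.08% and 0.811% of all rows were called. Without reversine 2 the count was 3, where 1.09% of all rows were called. A fit of reversine and control alone called 0 of the 44 and 0.0358% of all rows.

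BafA1, after only 6 h, gave 3 genes called lower and 0 higher: NOP56, DKC1 and RRS1. Of all tested rows 0.0619% were called lower and 0.202% higher, so that 3 of the 19 rows called lower in this comparison were among the 44. The median difference was −0.47, against 0.14 over all rows, and 41 of the 44 lay below 0. At an unadjusted p under 0.05, 18 were lower and 0 higher, against 2.48% and 4.64% of all rows. BafA1 libraries lay wholly below the controls for 25 of the 44 genes, against 7.42% of all rows, and wholly above them for 0, against 15.7%. In BafA1 2 all 44 genes were below their control mean, in BafA1 1 there were 43 and in BafA1 3 there were 34. The count of calls was 1 on leaving out the 4 GC-trend libraries, 0 in a fit of the 2 groups alone, and 7 after a correction of each library for GC content and length. Of all rows, 0.143% were called without the 4 GC-trend libraries, 0.0619% in that fit of 2 groups and 0.824% after the correction.

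After MG132 14 genes were called lower and 1 higher, where 7.67% of all rows were called lower and 7.14% higher. TAF1D was the gene called higher, and the 14 were 4 snoRNP genes, 2 Pol I genes, 1 small subunit gene and 7 large subunit genes. The median difference was −0.41, against 0.04 over all rows, 30 genes lay below 0, and individual differences ran from −1.85 (MRTO4) to 1.56 (TAF1D). MG132 libraries lay wholly below the controls for 22 of the 44 genes, against 13.5% of all rows, and wholly above them for 4, against 20.3%. Leaving out the 4 GC-trend libraries leaves MG132 1 alone with its spread taken from the other groups, and the median difference was then −0.59. Without MG132 1 the count was 27 (19 lower, 8 higher), when 12.5% of all rows were called lower and 30.0% higher. The 8 are thus a smaller share of the 44 than of all rows. The 8 were TAF1D, RRN3, FTSJ3, BRIX1, UTP20, LTV1, GNL3 and NPM1. All 3 comparisons share their controls, so their lists are not independent of one another.

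**Figure D1:**
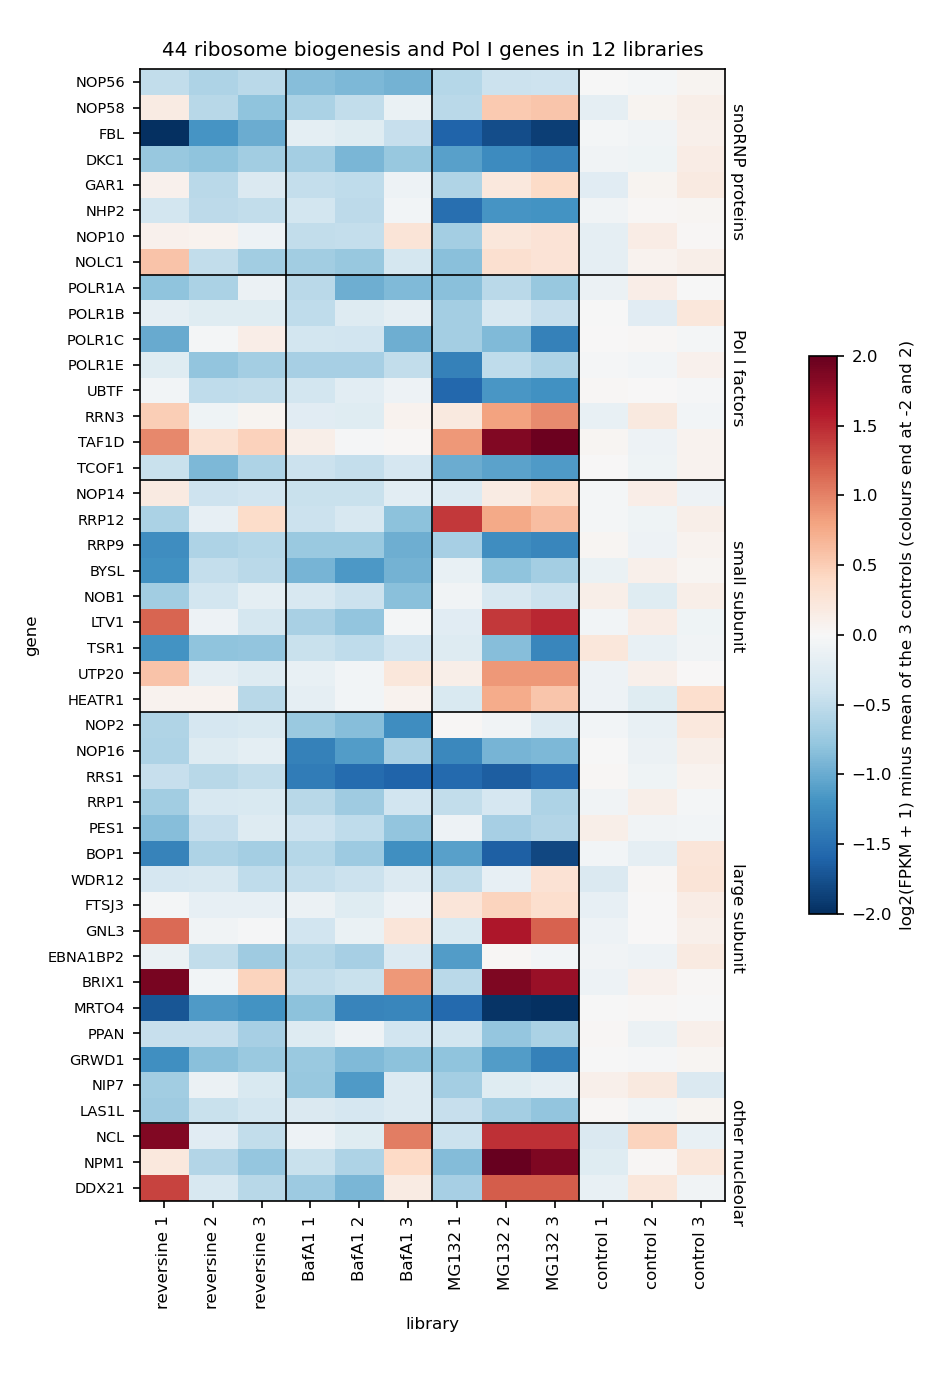
Colours give log2(FPKM + 1) in each of 12 libraries (columns) minus the mean of the 3 controls, for 44 genes (rows) in order of role, with blue lower and red higher than control and the scale ending at −2 and 2. Blue prevails in the treated columns, while reversine 1, MG132 2 and MG132 3 carry red cells for NPM1, NCL, DDX21, BRIX1, LTV1, GNL3 or TAF1D.

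Of the 8 snoRNP genes 3 were called lower after reversine, 2 after BafA1 and 4 after MG132, and 0 higher, with medians of −0.43, −0.39 and −0.28. Over all rows 1.29%, 0.0619% and 7.67% were called lower in the same comparisons. NOP56, a core protein of box C/D snoRNPs, was low in every treated library: 171, 156 and 165 FPKM in reversine 1, 2 and 3, 132, 128 and 124 in the BafA1 libraries and 161, 177 and 179 in the MG132 libraries, against 238, 233 and 248 in controls. No treated library overlapped the controls, and the BafA1 libraries were lowest. The differences were −0.55 ± 0.08 (SE) after reversine (limma adjusted p = 0.00672), −0.90 ± 0.08 after BafA1 (0.0015) and −0.47 ± 0.08 after MG132 (0.00337). The reversine call was lost without control 3 (limma adjusted p = 0.0735) and in a fit of the 2 groups alone (0.152). A fit of BafA1 and control alone lost the BafA1 call (limma adjusted p = 0.0605), and the MG132 call held in all 20 alternatives. BafA1 cells were also called lower than MG132 cells (−0.43 ± 0.08, limma adjusted p = 0.00632), a call lost in 6 of 20 alternatives (0.0507 to 0.128), among them the GC and length correction (0.084).

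DKC1 encodes dyskerin, the enzyme of box H/ACA snoRNPs and a partner of telomerase RNA. Its level was 56.8, 55.1 and 59.5 FPKM in reversine libraries, 60.2, 51.1 and 57.2 in BafA1 libraries and 45.3, 39.96 and 37.8 in MG132 libraries, against 92.7, 91.4 and 108 in controls. The groups did not overlap with control, and MG132 was below both other agents. DKC1 fell by 0.76 on the log2 scale after reversine (limma adjusted p = 0.0119), by 0.78 after BafA1 (0.0371) and by 1.23 after MG132 (0.000208), each with an SE of 0.12. The BafA1 call was lost in 15 of 20 alternative analyses and the reversine call in 5, each among them without the 4 GC-trend libraries (0.167 and 0.0726), while the MG132 call held in all 20. Reversine cells were 0.47 ± 0.12 above MG132 cells (limma adjusted p = 0.0477) and BafA1 cells 0.45 ± 0.12 above them (0.042), calls that were each lost in 14 of 20 alternatives.

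FBL, the box C/D methyltransferase fibrillarin, was called after reversine and MG132. It had 59.5, 107 and 123 FPKM in reversine 1, 2 and 3 and 79.8, 71.4 and 65.97 in the MG132 libraries, against 239.6, 232 and 264 in controls. BafA1 libraries had 213, 206 and 178 FPKM, also below every control but near them. After reversine the difference was −1.40 ± 0.23 (limma adjusted p = 0.0148), lowest in the GC-trend library, and the call was lost on leaving out any single control (0.0559 to 0.0853). After MG132 it was −1.75 ± 0.23 (limma adjusted p = 0.00122), and after BafA1 −0.30 ± 0.23 (0.733), not called. BafA1 cells were 1.44 ± 0.23 above MG132 cells (limma adjusted p = 0.00385), a call kept in all 20 alternatives. Reversine was −1.10 ± 0.23 relative to BafA1, which was not called (limma adjusted p = 0.0682).

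NHP2, a small RNA-binding protein of box H/ACA snoRNPs, was called after MG132. Its libraries read 120.3, 108 and 110.0 FPKM after reversine, 120.0, 108 and 149 after BafA1 and 53.8, 68.3 and 67.3 after MG132, against 148, 158 and 160.4 in controls. MG132 stood apart from all other libraries. The MG132 difference was −1.29 ± 0.14 (limma adjusted p = 0.000362), and reversine and BafA1 cells were 0.83 ± 0.14 and 0.98 ± 0.14 above MG132 cells (limma adjusted p = 0.00735 and 0.00195). The other 4 snoRNP genes, NOP58 (box C/D core), GAR1 and NOP10 (box H/ACA) and NOLC1 (a snoRNP chaperone), were called in no comparison. Their differences from control ran from −0.60 (NOLC1 after BafA1) to 0.18 (NOP58 after MG132). NOP10, a partner of dyskerin, had 122 ± 40.4 FPKM after MG132 and 122 ± 13.4 FPKM in controls, where DKC1 had 41.0 ± 3.87 and 97.4 ± 9.28 FPKM, and the difference between the 2 genes was not tested.

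**Figure D2:**
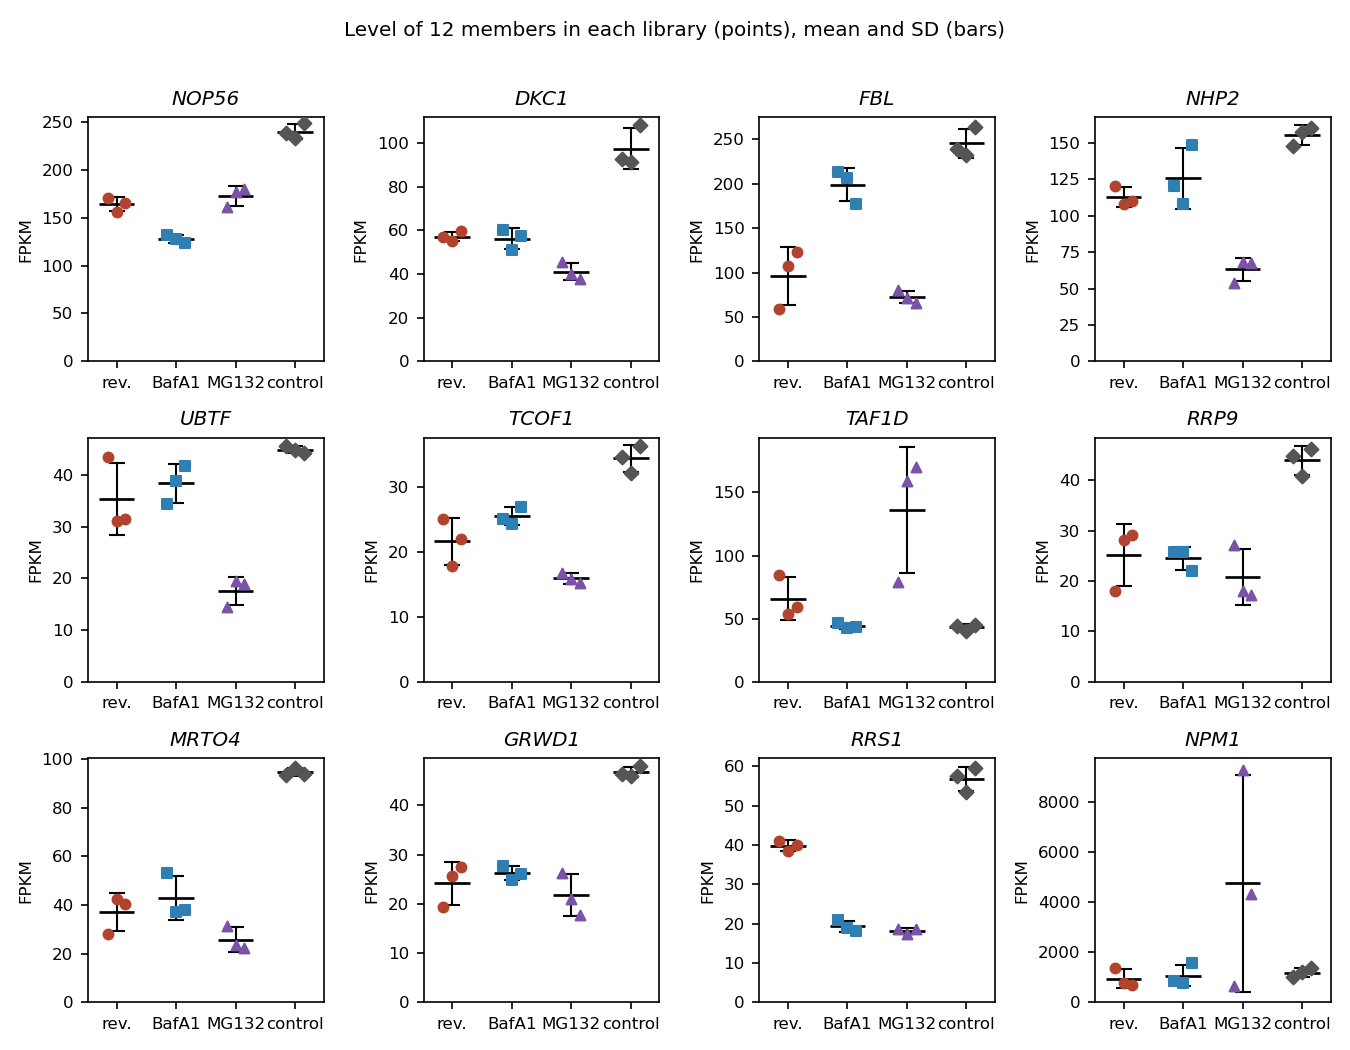
Each panel gives the FPKM of 1 gene in the 3 libraries of each group (points; rev. is reversine), with the mean as a bar and the SD as whiskers. Treated libraries lie below the controls for NOP56, DKC1, FBL, UBTF, TCOF1, RRP9, MRTO4, GRWD1 and RRS1. TAF1D is high in MG132 cells, and NPM1 ranges from 651 to 9303 FPKM within MG132.

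Of the 8 Pol I genes 0 were called after reversine or BafA1, where 3 each were lower at an unadjusted p under 0.05, and 2 were called lower and 1 higher after MG132. Over all rows 6.7% and 2.48% were lower at that unadjusted p, and after MG132 7.67% were called lower and 7.14% higher. The medians of the 8 genes were −0.33, −0.37 and −0.77. UBTF, which binds the ribosomal DNA repeats, fell to 14.5, 19.5 and 18.9 FPKM in MG132 libraries, against 45.6, 44.9 and 44.1 in controls. Reversine libraries had 43.4, 31.2 and 31.5 FPKM and BafA1 libraries 34.5, 38.8 and 41.8, all below the controls, with reversine 1 close to them. The difference after MG132 was −1.31 ± 0.17 (limma adjusted p = 0.00114), with a range over 20 alternatives from 5.94e-05 to 0.00925. UBTF was 0.96 ± 0.17 higher in reversine than in MG132 cells (limma adjusted p = 0.0108) and 1.09 ± 0.17 higher in BafA1 than in MG132 cells (0.00356).

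TCOF1 encodes treacle, a nucleolar scaffold that holds UBTF and Pol I. It had 24.99, 17.9 and 21.9 FPKM in reversine, 25.1, 24.2 and 26.9 in BafA1 and 16.7, 15.8 and 15.2 in MG132 libraries, against 34.6, 32.1 and 36.2 in controls. All 9 treated libraries were below the controls, and those of MG132 were lowest. TCOF1 was called after MG132 at −1.06 ± 0.15 (limma adjusted p = 0.00167), and not after reversine, at −0.66 ± 0.15 (0.0667), or BafA1, at −0.42 ± 0.15 (0.478). BafA1 was 0.65 ± 0.15 above MG132 (limma adjusted p = 0.0237), a call lost in 10 of 20 alternatives.

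TAF1D went the other way. This SL1 subunit had 79.1, 159 and 170.2 FPKM in MG132 1, 2 and 3, against 44.3, 40.2 and 45.2 in controls, with no overlap. Reversine libraries had 84.9, 53.5 and 59.5 FPKM, all above the controls, and BafA1 libraries had 46.8, 42.5 and 43.7, of which BafA1 1 lay just above them. Only the MG132 difference of 1.56 ± 0.28 was called (limma adjusted p = 0.00581); reversine gave 0.57 ± 0.28 (0.439). BafA1 was −1.52 ± 0.28 relative to MG132 (limma adjusted p = 0.0076). That call was lost in 2 of 20 alternatives, among them a fit of the 2 groups alone (limma adjusted p = 0.0749). The 2 MG132 libraries with the highest values are GC-trend libraries, and the TAF1D transcripts are GC-poor (38.7%). The difference was 1.35 after GC and length correction (limma adjusted p = 0.00321) and 0.86 with MG132 1 alone against 3 controls (0.0405). TAF1D also holds 8 annotated snoRNA genes within its span.

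The other 5 Pol I genes were called in no comparison with control. POLR1A and POLR1B, the 2 largest subunits, differed after MG132 by −0.71 ± 0.21 and −0.49 ± 0.18, POLR1C, shared with Pol III, by −0.97 ± 0.31, and POLR1E by −0.82 ± 0.25. Their limma adjusted p-values lay between 0.0538 (POLR1A) and 0.096 (POLR1B). POLR1A had 15.3, 19.1 and 16.3 FPKM in MG132, 19.2, 13.9 and 14.9 in BafA1 and 15.7, 17.8 and 26 in reversine libraries, against 26.03, 30.9 and 27.98 in controls. Its MG132 and BafA1 libraries were all below the controls, and reversine 3 nearly reached control 1. RRN3, the initiation factor that recruits Pol I, had a positive MG132 difference of 0.65 ± 0.25 (0.0991), with 15.2, 23.6 and 26.04 FPKM in MG132 libraries against 11.7, 15.2 and 12.6 in controls. As 3 numbered RRN3 pseudogenes are listed (3.57 to 7.29 FPKM summed), how reads were divided among these copies is uncertain.

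Of the 9 small subunit genes 1 was called in any comparison with control, lower after MG132, where 7.67% of all rows were called lower. The role's medians were −0.21 after reversine, −0.49 after BafA1 and 0.08 after MG132. RRP9, a protein of the U3 snoRNP that processes the 18S part of the precursor, was that gene. It had 18, 28.2 and 29.1 FPKM in reversine, 25.8, 25.8 and 21.9 in BafA1 and 27.2, 17.9 and 17.1 in MG132 libraries, against 44.9, 40.7 and 46.2 in controls. All 9 treated libraries were below the controls. The difference was −1.07 ± 0.23 after MG132 (limma adjusted p = 0.0132), lost without MG132 2, MG132 3, control 1 or control 3 (0.0549 to 0.0668) and without the 4 GC-trend libraries (0.0794). It was −0.81 ± 0.23 after reversine (0.136) and −0.82 ± 0.23 after BafA1 (0.364), neither called.

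RRP12, a factor for export of pre-ribosomes, was called between BafA1 and MG132. It had 104, 65.9 and 59.7 FPKM in MG132 1, 2 and 3 and 28.4, 30.7 and 21.4 in BafA1 libraries, against 37.7, 36.2 and 42.1 in controls. MG132 libraries were all above and BafA1 libraries all below the controls. Reversine libraries had 24.6, 34.5 and 49.9 FPKM and overlapped them. BafA1 was −1.45 ± 0.29 relative to MG132 (limma adjusted p = 0.0109). Against control MG132 gave 0.93 ± 0.29, which missed the threshold (limma adjusted p = 0.0599) but passed it after GC and length correction (1.06, 0.00719) and when leaving out the 4 GC-trend libraries (1.41, 0.0359).

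BYSL (bystin), NOB1 (the nuclease that trims 18S rRNA) and TSR1 had lower means than control in all 3 treated groups without a call. After BafA1, BYSL gave −1.01 ± 0.23 (limma adjusted p = 0.209) with 31.8, 27.1 and 31.4 FPKM in BafA1 libraries against 55.99, 65.5 and 62.8 in controls. TSR1, a GTPase-like protein of the late small subunit, gave −0.93 ± 0.25 after reversine (limma adjusted p = 0.108), with 40.4, 53.5 and 54.03 FPKM in reversine libraries against 111, 84.6 and 89.3 in controls. Both groups of libraries lay below the controls. NOP14, UTP20, HEATR1 and LTV1 had differences from −0.49 to 0.90 and no call. LTV1 had 7.22, 24.8 and 26.4 FPKM in MG132 and 20.6, 8 and 6.58 in reversine libraries, against 8.24, 9.65 and 8.1 in controls. Its high values in these groups were in the GC-trend libraries, and with MG132 1 alone the difference was −0.23 (limma adjusted p = 0.652).

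**Figure D3:**
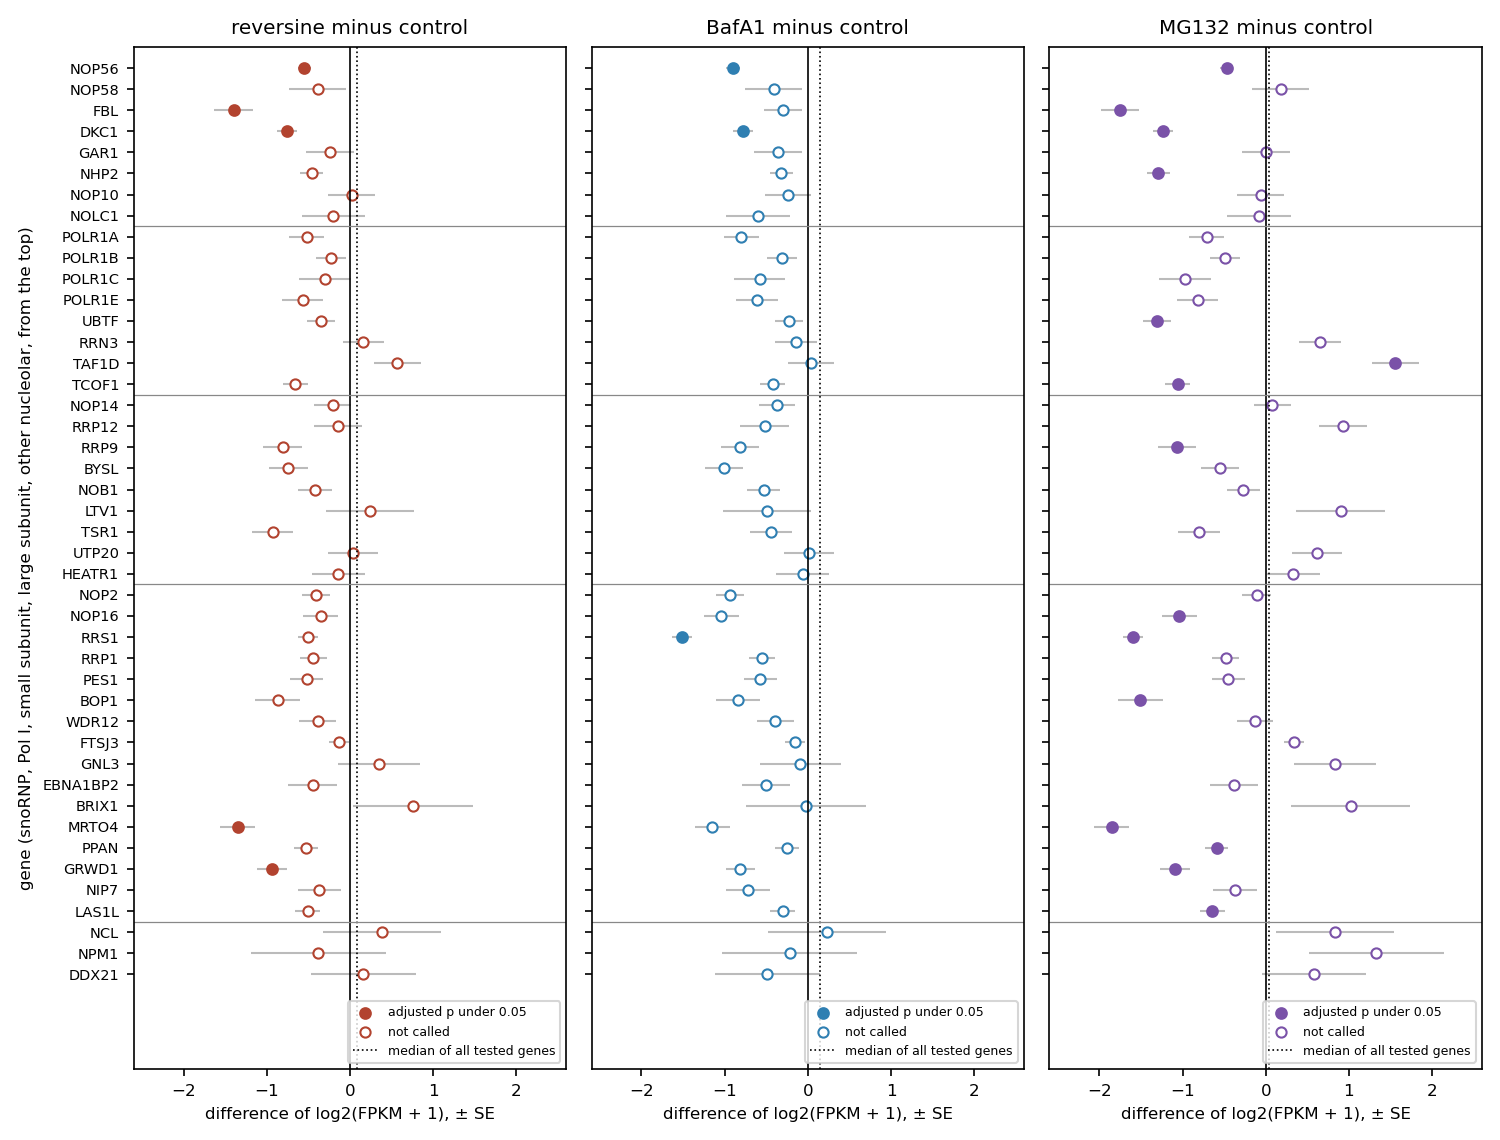
Points give the difference of log2(FPKM + 1) between each treated group and control for 44 genes by role, with the SE as a bar. Filled points are called at a limma adjusted p under 0.05 (5 after reversine, 3 after BafA1, 15 after MG132), and the dotted line is the median of all 30712 rows.

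Of the 16 large subunit genes 2 were called lower after reversine, 1 after BafA1 and 7 after MG132, with medians of −0.44, −0.56 and −0.47. Over all rows 1.29%, 0.0619% and 7.67% were called lower in the same comparisons. RRS1, which helps to bring the 5S particle into the large subunit, separated reversine from the other agents. It had 20.98, 18.9 and 18.1 FPKM in BafA1 and 18.6, 17.4 and 18.8 in MG132 libraries, and 41.1, 38.4 and 40.05 in reversine libraries, against 57.5, 53.5 and 59.5 in controls. The libraries fell into 3 bands, with reversine between the other agents and control. RRS1 differed by −1.51 ± 0.12 after BafA1 (limma adjusted p = 0.00131) and −1.59 ± 0.12 after MG132 (4.85e-05). After reversine it differed by −0.50 ± 0.12 and was not called (0.0698). Reversine was 1.01 ± 0.12 above BafA1 (limma adjusted p = 0.00376) and 1.08 ± 0.12 above MG132 (0.000675), and BafA1 and MG132 differed by 0.08 ± 0.12 (0.619). Leaving out the 4 GC-trend libraries the BafA1 call was lost at 0.0507, and the calls of reversine against BafA1 and against MG132 at 0.0881 and 0.0559.

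MRTO4 resembles the ribosomal stalk protein P0 and holds its place during assembly. Its level was 28.1, 42.6 and 40.6 FPKM in reversine, 53.2, 37.2 and 37.9 in BafA1 and 31.6, 23.7 and 22.3 in MG132 libraries, against 93.6, 96.5 and 93.8 in controls. The 3 controls were nearly equal, and every treated library was far below them. The differences were −1.35 ± 0.21 after reversine (limma adjusted p = 0.0114) and −1.85 ± 0.21 after MG132 (0.000511). BafA1 gave −1.15 ± 0.21, not called (0.0896). The reversine call was lost on leaving out any single control (0.0511 to 0.0663), and the MG132 call in none of 20 alternatives.

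GRWD1, a WD-repeat chaperone of ribosomal and histone proteins, was low in all 9 treated libraries. It had 19.3, 25.6 and 27.5 FPKM in reversine, 27.7, 24.8 and 26.2 in BafA1 and 26.3, 21.1 and 17.8 in MG132 libraries, against 46.4, 46 and 48 in controls. None of them overlapped the controls. It was called after reversine at −0.94 ± 0.18 (limma adjusted p = 0.0289) and after MG132 at −1.09 ± 0.18 (0.00363), and not after BafA1 at −0.81 ± 0.18 (0.18). The reversine call was lost in 12 of 20 alternatives, among them that without the 4 GC-trend libraries (0.055).

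PES1, BOP1 and WDR12 form one complex of the large subunit pathway. Only BOP1 was called, and whether the 3 differ from one another was not tested. BOP1 averaged 38.0 ± 10.8 FPKM after MG132 and 108 ± 16.7 in controls (SD, n = 3 each), a difference of −1.51 ± 0.27 (limma adjusted p = 0.0059). PES1 averaged 96.3 ± 21.5 and 130.0 ± 9.19 FPKM in the same groups, with −0.45 ± 0.20 (0.118). WDR12 averaged 31.9 ± 9.17 and 34.4 ± 6.73 FPKM, with −0.13 ± 0.22 (0.695). After reversine and BafA1 none of the 3 was called, at −0.87 and −0.84 for BOP1, −0.52 and −0.57 for PES1, and −0.39 and −0.39 for WDR12. BOP1 has 2 rows in the table, of which the higher was used, so its level is uncertain.

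NOP16, LAS1L and PPAN were the other large subunit genes called after MG132. NOP16 averaged 26.8 ± 4.05 FPKM in MG132 cells and 55.9 ± 4.6 in controls (−1.04 ± 0.21, limma adjusted p = 0.0104). LAS1L, the nuclease that cuts the second internal spacer, averaged 19.8 ± 2.45 and 31.4 ± 1.4 FPKM (−0.64 ± 0.15, limma adjusted p = 0.0172). PPAN averaged 38.2 ± 5.61 and 57.7 ± 4.24 FPKM (−0.59 ± 0.14, limma adjusted p = 0.0233). The NOP16 call was lost in 1 of 20 alternatives, that of LAS1L in 5 and that of PPAN in 8. Without the 4 GC-trend libraries LAS1L had an adjusted p of 0.203 and PPAN of 0.37. PPAN overlaps a readthrough gene with P2RY11, so its reads may be divided. NOP16 averaged 27.3 ± 7.26 FPKM in BafA1 cells, a difference of −1.04 ± 0.21 that was not called (0.132).

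NOP2, an rRNA methyltransferase, and FTSJ3, another, were called between BafA1 and MG132 and not against control. NOP2 had 49.8, 45.8 and 34.9 FPKM in BafA1 libraries and 84.9, 79.8 and 68.8 in MG132 libraries, with 54.8, 66.3 and 67.8 in reversine libraries and 80.2, 75.1 and 97.2 in controls. The BafA1 libraries lay below all others. BafA1 was −0.83 ± 0.17 relative to MG132 (limma adjusted p = 0.0129), and −0.94 ± 0.17 relative to control, which was not called (0.0847). The call against MG132 was lost in 3 of 20 alternatives, among them that without MG132 2 (limma adjusted p = 0.0662). FTSJ3 averaged 37.9 ± 2.01 FPKM in BafA1 cells and 54.0 ± 4.04 in MG132 cells, a difference of −0.50 ± 0.12 (limma adjusted p = 0.0297) whose call was lost in 11 of 20 alternatives, among them the GC and length correction (0.45). RRP1, EBNA1BP2 and NIP7 were lower in mean than control in all 3 groups, by 0.37 to 0.72, without a call. GNL3 (nucleostemin) and BRIX1 had no call and wide spreads. BRIX1 had 28.8, 6.64 and 9.81 FPKM in reversine, 4.67, 4.86 and 13.5 in BafA1 and 4.48, 28.2 and 25.4 in MG132 libraries, against 6.4, 7.45 and 7.12 in controls. In each treated group its high libraries were the GC-trend libraries, and with MG132 1 alone the difference was −0.54 (limma adjusted p = 0.336).

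None of the 3 abundant nucleolar proteins was called, and 0 of 3 passed an unadjusted p of 0.05, against control. NPM1, a chaperone of ribosomal proteins and histones, had 651, 9303 and 4332 FPKM in MG132 1, 2 and 3, against 1004, 1199 and 1378 in controls. MG132 1 lay below all controls and MG132 2 and 3 far above them. Reversine libraries had 1375, 788 and 695 FPKM and BafA1 libraries 874, 773 and 1559. The MG132 difference of 1.33 ± 0.81 was not called (limma adjusted p = 0.257). It was 2.42 without MG132 1 (limma adjusted p = 0.00242), −0.86 with MG132 1 alone (0.0636) and 0.73 after GC and length correction (0.38). NPM1 has 45 numbered pseudogene rows, which summed to at most 20.2 FPKM in any library.

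NCL (nucleolin) had 429, 100.3 and 83.8 FPKM in reversine 1, 2 and 3, 109, 99.8 and 242 in the BafA1 libraries and 87.6, 325 and 327 in the MG132 libraries, against 96.1, 159.9 and 106 in controls. DDX21, an RNA helicase of the nucleolus, had 53.1, 15.99 and 13.4 FPKM in reversine libraries, 11.8, 10.2 and 22.9 in BafA1 libraries and 12.3, 47.8 and 47.9 in MG132 libraries, against 18.2, 23.7 and 19.1 in controls. For both genes reversine 1, BafA1 3, MG132 2 and MG132 3 were higher than the other libraries of their groups. With MG132 1 alone their differences were −0.42 (limma adjusted p = 0.569) and −0.67 (0.217). These 2 genes are given in full because of that pattern, seen in their values.

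The spread within groups moved with GC content across the 44 genes. Transcript GC content was known for 43 of them; 16 lay below the median of the tested rows (48.3%) and 27 at or above it. The mean of MG132 2 and 3 exceeded MG132 1 for 16 of the 16 GC-poor genes, with a median of 1.00 on the log2 scale. It did so for 11 of the 27 others, with a median of −0.19. Reversine 1 exceeded the mean of reversine 2 and 3 for 15 of 16 GC-poor genes (median 0.69) and 11 of 27 others (−0.30). BafA1 3 exceeded the mean of BafA1 1 and 2 for 15 of 16 (0.47) and 14 of 27 (0.04). Pearson's r over the 43 genes was −0.75, −0.65 and −0.60 in these 3 cases, over genes that share the libraries. Differences from control moved with it too: their medians in GC-poor and other genes were 0.03 and −0.51 after reversine, −0.23 and −0.57 after BafA1, and 0.60 and −0.71 after MG132. After correction of each library for its GC and length trend, 6 genes were called after reversine, 7 after BafA1 and 21 (19 lower, 2 higher) after MG132, of the 43 with a GC value, where 4.36%, 0.824% and 22.6% of all rows were called. The median over the 44 (43 in that correction) stayed below 0 in each of the 20 alternatives, lying between −0.45 and −0.34 with reversine, between −0.55 and −0.38 with BafA1 and between −0.59 and −0.36 with MG132. Several of these alternatives could not move a median. A changed filter, a fit of 2 groups alone, or leaving out a library outside the comparison keeps the group means of each gene.

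**Figure D4:**
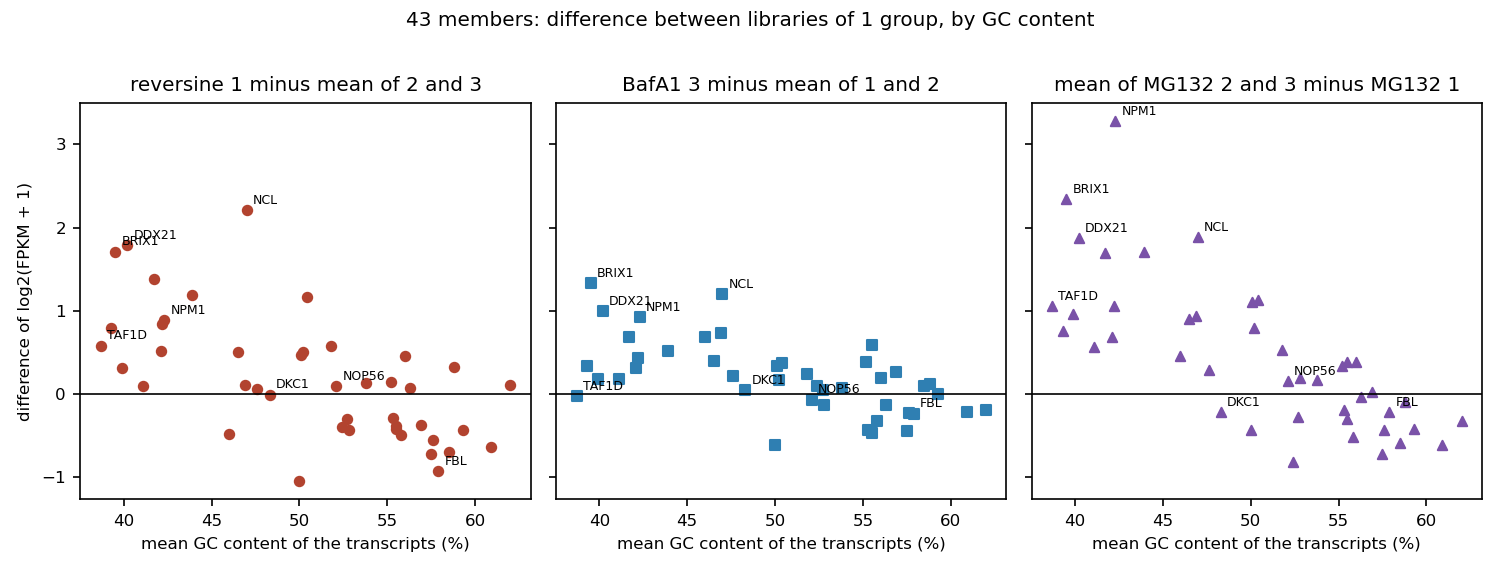
Each point is 1 of 43 genes, placed by the mean GC content of its transcripts (%) and by the difference of log2(FPKM + 1) between libraries of the same group: reversine 1 minus the mean of 2 and 3, BafA1 3 minus the mean of 1 and 2, and the mean of MG132 2 and 3 minus MG132 1. Most GC-poor genes lie above 0 in all 3 panels (15 or 16 of 16), NPM1 highest at 3.28 in MG132.

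Between agents, which differ in target, dose and time, 1, 4 and 10 of the 44 were called. Reversine against BafA1 called 1 gene higher (RRS1) and 0 lower, where 0.443% of all rows were higher and 0.785% lower. Reversine against MG132 called 4 higher (UBTF, DKC1, NHP2, RRS1) and 0 lower, where 3.52% of rows were higher and 2.99% lower. BafA1 against MG132 called 5 higher (TCOF1, UBTF, FBL, NHP2, DKC1) and 5 lower (TAF1D, FTSJ3, NOP2, RRP12, NOP56), where 6.37% of rows were higher and 4.49% lower. The medians over the 44 were 0.10, −0.07 and −0.21 in these 3 comparisons, with ranges over 20 alternatives of 0.04 to 0.19, −0.08 to 0.18 and −0.37 to 0.07. The medians of both MG132 comparisons thus changed sign: without the 4 GC-trend libraries they were 0.18 and 0.07.

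Further genes of the pathway, listed by role and not among the 44, were read against the same shares of all rows. Called lower and higher were 1.29% and 0.801% after reversine, 0.0619% and 0.202% after BafA1, and 7.67% and 7.14% after MG132. Of 14 further Pol I and selectivity genes, 0 were called after reversine or BafA1, with medians of 0.02 and −0.01, and after MG132 3 were higher and 3 lower (median 0.09). The smallest adjusted p-values among these were those of 2 polymerase subunits shared with Pol II and Pol III. POLR2L had 419, 159 and 161 FPKM in MG132 libraries, against 1533, 1262 and 1727 in controls (−2.76 ± 0.52, limma adjusted p = 0.00755), and POLR2F averaged 80.6 ± 3.02 FPKM in MG132 cells and 175 ± 4.80 in controls (−1.11 ± 0.19, limma adjusted p = 0.00438). Of 10 snoRNP assembly genes 1 was lower after reversine, 0 were called after BafA1, and 2 were lower and 1 higher after MG132. RUVBL1, an ATPase that helps to assemble snoRNPs, was lower after reversine (−0.72 ± 0.12, limma adjusted p = 0.0134) and after MG132 (−0.87 ± 0.12, limma adjusted p = 0.00122). NHP2L1, which binds the kink of box C/D snoRNAs, was lower after MG132 (−0.93 ± 0.19, limma adjusted p = 0.0108).

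Of 40 further small subunit genes 3 were lower after reversine, 0 were called after BafA1 and 8 were lower after MG132, with none higher in any of the 3. Their medians were −0.1, −0.24 and −0.01, where the 9 small subunit genes among the 44 had −0.21, −0.49 and 0.08. Over all rows 1.29% were called lower after reversine, 0.0619% after BafA1 and 7.67% after MG132. EMG1, an rRNA methyltransferase, had 36.5, 38.1 and 50.4 FPKM in reversine libraries, against 86.1, 82.3 and 82.4 in controls (−1.0 ± 0.17, limma adjusted p = 0.0166), and RRP7A was the next by adjusted p (−0.85 ± 0.18, limma adjusted p = 0.0463). IMP3, a U3 snoRNP protein, had 26.3, 23.5 and 23.9 FPKM in MG132 libraries, against 70.5, 68.7 and 75.5 in controls (−1.51 ± 0.15, limma adjusted p = 0.000293), and WDR3 averaged 12.7 ± 1.00 FPKM in MG132 cells and 25.2 ± 3.85 in controls (−0.93 ± 0.17, limma adjusted p = 0.00645). Of 47 further large subunit genes 0 were called after reversine or BafA1. After MG132 4 were higher and 3 lower, counts near the 7.14% and 7.67% of all rows called higher and lower. Their median was 0.43 after MG132, where the 16 large subunit genes among the 44 had −0.47. NOP53, listed as GLTSCR2, had 157, 177 and 176 FPKM in MG132 libraries, against 84.6, 82.9 and 85.5 in controls (1.00 ± 0.09, limma adjusted p = 0.00017), and DDX54, a helicase, was lower (−0.98 ± 0.18, limma adjusted p = 0.00689).

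The 15 genes of the RNA exosome and other rRNA nucleases had the lowest median of these lists after reversine, −0.71, with 1 called lower, 0 called after BafA1 and 4 lower after MG132. Among all tested rows 1.29%, 0.0619% and 7.67% were called lower in these comparisons. EXOSC9, an exosome core subunit, averaged 18.9 ± 0.675 FPKM in reversine cells and 18.1 ± 5.14 in MG132 cells, against 41.6 ± 2.77 in controls (−1.10 ± 0.20, limma adjusted p = 0.0269 and −1.20 ± 0.20, limma adjusted p = 0.00457). EXOSC6 was lower after MG132 (−1.26 ± 0.23, limma adjusted p = 0.00635). Of 23 genes of the 5S particle and Pol III, 3 were higher and 3 lower after MG132, where 7.14% and 7.67% of all rows were. After reversine and BafA1 0 were called. GTF3C3, of the Pol III factor TFIIIC, had 42.6, 61.1 and 51.0 FPKM in MG132 libraries, against 16.1, 16.7 and 16.6 in controls (1.57 ± 0.19, limma adjusted p = 0.000824). Of 75 ribosomal protein genes 0 were called after reversine or BafA1 and 3 were lower after MG132, among them RPS2 (−1.46 ± 0.38, limma adjusted p = 0.0318) and RPSA (−0.55 ± 0.15, limma adjusted p = 0.0368). Those 3 are a smaller share than the 7.67% of all rows called lower after MG132. The medians of the 75 were −0.13, −0.08 and 0.24 after reversine, BafA1 and MG132, against 0.09, 0.14 and 0.04 over all rows. At an unadjusted p under 0.05, 5 ribosomal protein genes (of 75) were lower and 1 higher after reversine, where 6.7% and 5.12% of all rows were, and 0 were either after BafA1, where 2.48% and 4.64% were.

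MYC mRNA itself was not called. It averaged 61.9 ± 16.5 FPKM in reversine, 71.7 ± 11.0 in BafA1 and 109 ± 24.8 in MG132 cells, against 70.4 ± 7.45 in controls (SD, n = 3 each). The differences were −0.21, 0.02 and 0.60, with limma adjusted p-values of 0.814, 0.993 and 0.0985. MXI1, which binds the same E-box and represses, averaged 23.3 ± 2.87 FPKM in reversine, 44.8 ± 1.90 in BafA1 and 18.3 ± 1.68 in MG132 cells, against 10.4 ± 0.674 in controls. Of 6 tested genes in a list of MYC, its partner MAX and MYC's antagonists, 2 were called higher after reversine, 1 after BafA1 and 3 after MG132, with 0 lower, medians of 0.24, 0.30 and 0.62, and lowest differences of −0.91, −0.73 and −0.97. The shares of all rows called higher in these comparisons were 0.801%, 0.202% and 7.14%. MXI1 was called higher in all 3 comparisons (1.08 ± 0.15, limma adjusted p = 0.00562, 2.00 ± 0.15, limma adjusted p = 0.00111 and 0.76 ± 0.15, limma adjusted p = 0.00825). MXD4 was called higher after reversine (1.09 ± 0.14, limma adjusted p = 0.00459) and MXD1 after MG132 (1.38 ± 0.22, limma adjusted p = 0.00337).

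A feature that the choice of genes did not use is the snoRNAs encoded within them. In GENCODE v29, 8 of the 44 genes (18.2%) hold annotated snoRNA genes on the same strand within their span, against 1.6% of 14194 tested protein-coding genes. They are NOP56 with 5, NOP58 with 4, DKC1 with 2, TAF1D with 8, TSR1 with 2, GNL3 with 6, PPAN with 2 and NCL with 3. Such snoRNAs are cut from introns of the host. Of the 8 hosts, 2 were called lower after reversine, 2 after BafA1 and 3 after MG132, with 1 higher. Of the 36 others, 3, 1 and 11 were called lower in the same comparisons. The shares of all tested rows called lower were 1.29%, 0.0619% and 7.67%, and 7.14% were called higher after MG132. The mature snoRNAs carry no poly(A) tail, and their levels were not analysed here.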

How the data were processed

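Poly(A)-selected RNA of 12 samples of hTERT-RPE1 cells, 3 per group, was sequenced as 50 nt reads, per the labels' protocols. Per the submitters' processing notes the tools were RSEM 1.2.6 and Bowtie 1.0.0 and the build was hg19 (GRCh37). The deposited header names no unit, and the authors' values were taken as FPKM because totals differed between libraries (962891 to 2057717), which TPM does not allow. No counts or depths were given, so precision is limited by the spread of 3 libraries. Samples were grouped by the labelled treatment; replicate numbers follow record order and pair nothing, and no label says that the libraries are separate cultures: the p-values reflect variation between these libraries, perhaps technical.

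One fit of the 4 groups used limma 3.58.1 (R 4.3.3, with a mean-variance trend) on log2(FPKM + 1), over rows that reached 1 FPKM in 3 or more libraries, without added scaling, with Benjamini-Hochberg adjustment over all rows in each of 6 comparisons and calls under 0.05. The fit had 8 residual degrees of freedom, to which the prior gave a further 1.26. Adding 1 understates changes of low genes. The 44 genes and all lists were chosen with earlier results of these data known. A symbol with several rows took the one of highest mean. Named, with values in each library, with group means or, for some genes of the wider lists, with differences alone, were the genes called against control, up to 3 per role and comparison by adjusted p, the lowest p of a role without calls, genes called between treatments, up to 2 called genes of each wider list, and MYC. RRP12, NCL, DDX21, BRIX1, LTV1, BYSL, TSR1, POLR1A and RRN3 in full, and other genes with values, were chosen after values were seen. A gene chosen by the rule is not reported here. GC content, length (25349 rows, 82.5% of those tested) and snoRNA genes came from GENCODE v29 by identifier, and promoters from RefSeq. BOP1 has no GC value there. Copies with near-identical sequence and overlapping or antisense genes are uncertain, since no strand setting is stated. Alternatives were a pseudocount of 0.1, no filter, a minimum of 5 FPKM, median-ratio scaling, 2-group fits, leaving out each library, a GC and length correction (splines with 5 degrees of freedom), leaving out the 4 libraries with a falling GC trend, and limma array weights.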

Additional observations from a re-analysis of the deposited data

How the results depend on the processing

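The count of the 44 genes called was 5 after reversine, 3 after BafA1, 15 after MG132, and 1, 4 and 10 in reversine against BafA1, reversine against MG132 and BafA1 against MG132. A fit of the 2 groups alone gave 0, 0, 0, 0 and 3 in all but the MG132 comparison with control (reversine, BafA1, then the 3 between agents). In that order these fits called 0.0358%, 0.0619%, 0.00651%, 0.834% and 4.6% of all rows. Leaving out the 4 GC-trend libraries, the counts were 3 after reversine, 1 after BafA1 and 0 in reversine against BafA1. In these fits 2.59%, 0.143% and 0.557% of all rows were called. MG132 1 is then alone in its group, so counts of MG132 comparisons are not given for this setting. Array weights raised all 6 counts, to 15, 11, 34, 6, 32 and 35, and called 7.82%, 2%, 68.1%, 6.99%, 70.4% and 70.6% of all rows. The lowest weights were 0.109 for MG132 1, 0.232 for reversine 1 and 0.336 for control 3. MG132 2 and 3, both GC-trend libraries, had weights of 1.2 and 2, so the weighted MG132 means rest mostly on them. The GC and length correction (43 genes) gave 7 after BafA1 and 2 in reversine against BafA1, where a pseudocount of 0.1 and a minimum of 5 FPKM gave 2 each. Leaving out 1 library gave 0 (without control 3) to 7 (without MG132 1) after reversine, 2 to 4 after BafA1, 11 to 27 after MG132, and 1 to 2, 3 to 17 and 5 to 26 between agents, where the highest counts of MG132 comparisons came without MG132 1, when 42.5%, 55.7% and 60.1% of all rows were called. The cause was not tested. Of 5274 results of single genes under alternatives, 131 lost and 204 gained a call, 227 uncalled differences changed sign, and 0 calls changed direction. Median-ratio scaling changed the split of all rows called after MG132 to 1649 higher and 2879 lower, against 2192 and 2357 unscaled, of those in reversine against BafA1 to 176 and 172, against 136 and 241, and of those in reversine against MG132 to 1521 and 626, against 1082 and 918. No paired analysis was possible because the labels give no replicate numbers shared between groups. Depth is unknown, so low genes such as UTP20 carry an unstated counting error.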
